A study of Mus musculus with 8 samples.

Results

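The genes described here build the nuclear lamina and the LINC complex (linker of nucleoskeleton and cytoskeleton). They are the lamins Lmna, Lmnb1 and Lmnb2, the lamin B receptor Lbr, the LEM-domain genes Emd and Tmpo, the chromatin linker Banf1, the SUN genes Sun1 and Sun2, and the nesprin Syne1. They were taken by symbol from the authors' table of gene expression, which held all 10 of them among 23084 genes. RNA was sequenced from CD11b+Ly6C+ (monocytic) and CD11b+Ly6G+ (granulocytic) myeloid cells sorted from spleens of C57BL/6 mice aged 6 to 8 weeks, either wt or LmnaMyeKO. In LmnaMyeKO mice, LysM-Cre deletes floxed Lmna in cells of the myeloid lineage. Each genotype gave 2 samples of either subset, so that 8 samples make up 4 groups. The subset was read from the sample titles, since the label for cell markers gives CD11b+Ly6C+ for every sample. Which exons the floxed allele loses, and whether spleens of several mice were pooled, is not given in the sources used here. The methods do not state whether the mice used for RNA sequencing bore tumours.

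The lamina is a meshwork of A-type lamins (lamin A and lamin C, both from Lmna) and B-type lamins (lamin B1 and lamin B2) beneath the inner nuclear membrane. Lbr, emerin and most LAP2 proteins sit in that membrane and hold chromatin to it, while LAP2α is found in the nuclear interior. SUN proteins span the inner membrane to meet the KASH domains of nesprins, which reach into the cytoplasm and bind the cytoskeleton. Blood granulocytes are known for lobed, deformable nuclei with little lamin A/C, and loss of Lbr function leaves their nuclei poorly lobed.

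For each gene the authors' table holds a single level, their mean of read counts divided by size factors (mean normalised signal). The authors' comparison of wt with LmnaMyeKO cells was not used, and values per sample were not analysed here, so no difference between genotypes or subsets was tested. Which samples had been averaged was read from the lowest means. All 1533 genes with a mean signal under 0.45 equalled a whole-number combination of the same 8 steps, within 2e-08, where a step is the contribution of 1 read in 1 sample. A single set of steps solved them, and none of the 25 values that reads in only 1 sample would give was seen. The mean of every gene thus covers 8 samples, the number in the series, so wt and LmnaMyeKO cells of both subsets weigh equally in each level below. The size factors that follow from the steps run from 0.796 to 1.91. The spread between samples is unknown, and the counting error given below covers only the sampling of reads.

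Among the 10 genes, Sun2, Lbr and Lmnb1 had the highest mean levels per kb of merged exons and Lmna by far the lowest. The same genes led with 3 of 4 measures of length, while with the median coding transcript Lmnb1 (1655) came below Syne1 (6815) and Tmpo (2565). For some genes, Sun1, Lbr and Syne1 among them, that median includes incomplete coding transcripts. Per kb of merged exons, the mean normalised signal was 4667 for Sun2, 2699.6 for Lbr and 1589 for Lmnb1, against 13.6 for Lmna. The median protein-coding gene of the table stood at 60.2 on this scale. Of the 10 genes, 9 lay above that median, and Lmna lay below it.

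**Figure D1:**
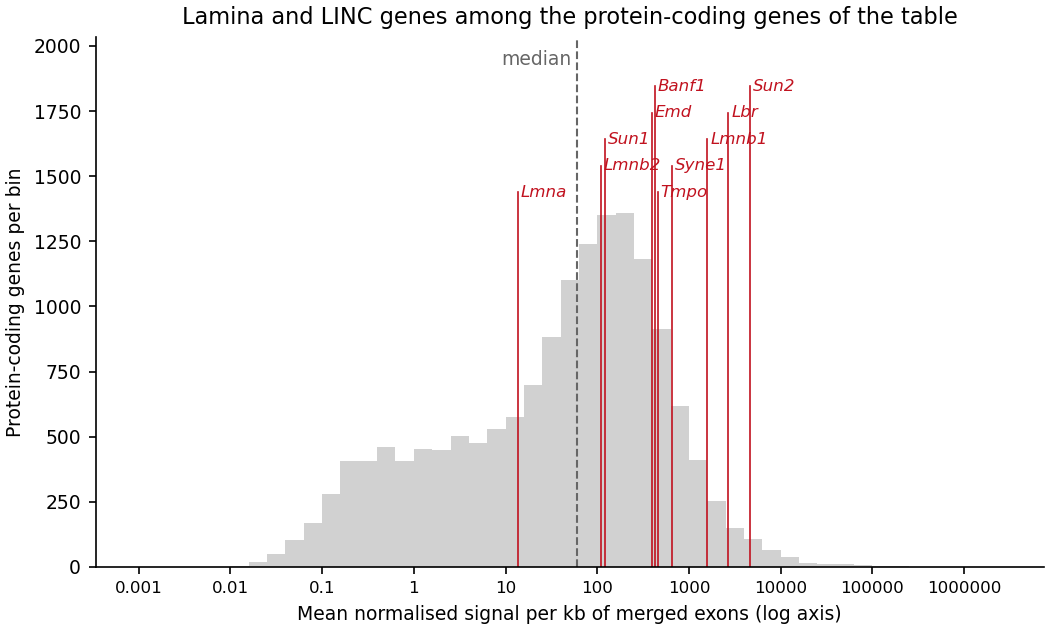
Histogram of the mean normalised signal per kb of merged exons (horizontal log axis) over the 15697 protein-coding genes with a length, with the number of genes per bin on the vertical axis. Red lines mark the 10 lamina and LINC genes and the dashed line the median of 60.2: Lmna alone is left of the median, at 13.6, and Sun2, at 4667, is farthest to the right.

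Among the lamin genes, Lmnb1 was highest and Lmna lowest. Lmnb1 (ENSMUSG00000024590), on chromosome 18 of mm10, had a mean normalised signal of 4705. Lmnb2 (ENSMUSG00000062075), which encodes lamin B2 and occupies chr10:80901203-80918245 (minus strand), had a mean normalised signal of 475. Lmna (ENSMUSG00000028063), the targeted gene, occupies chr3:88480147-88509956 (minus strand) and had a mean normalised signal of 79.5. Per kb of merged exons these are levels of 1589, 111 and 13.6. Of the summed lamin level per kb, Lmnb1 made up 92.7%, Lmnb2 6.47% and Lmna 0.795%, so nearly all lamin transcript in the averaged samples came from Lmnb1. The average includes the LmnaMyeKO samples, and what part the deletion has in the Lmna share was not tested.

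This order held with each of 4 measures of gene length, namely merged exons (all annotated exons of a gene, each base counted once), the longest transcript, the median of the coding transcripts and the longest complete coding sequence (coding length). The ratio of Lmnb1 to Lmna per kb ran from 37.0 to 117, that of Lmnb1 to Lmnb2 from 10.4 to 14.3 and that of Lmnb2 to Lmna from 3.15 to 8.13. The share of Lmnb1 in the lamin level stayed between 89.9% and 92.7%, and that of Lmna between 0.795% and 2.43%. The level of Lmna rests on at least 507 and at most 1216 reads over the 8 samples, with a counting error of at most 4.44% (SE). For the other 9 genes the counting error was at most 1.82%.

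Because the 4 groups weigh equally and no count is negative, no group can exceed 4 times the mean. The Lmna level in any 1 group, wt CD11b+Ly6C+ cells included, was therefore at most 54.5 per kb of merged exons. This ceiling lies below the mean of Lmnb1 (1589), that of Lmnb2 (111) and, by a small margin, the median protein-coding gene (60.2). The median gene was taken for merged exons only, so that comparison was not made with the other lengths. With the median coding transcript as length the ceiling is 179, which is above the Lmnb2 mean of 141 and still below the Lmnb1 mean of 1655. The ceiling bounds Lmna in a group and says nothing of Lmnb1, Lmnb2 or the median protein-coding gene in that same group. How the reads of Lmna were divided among wt and LmnaMyeKO cells cannot be told from a mean.

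**Figure D2:**
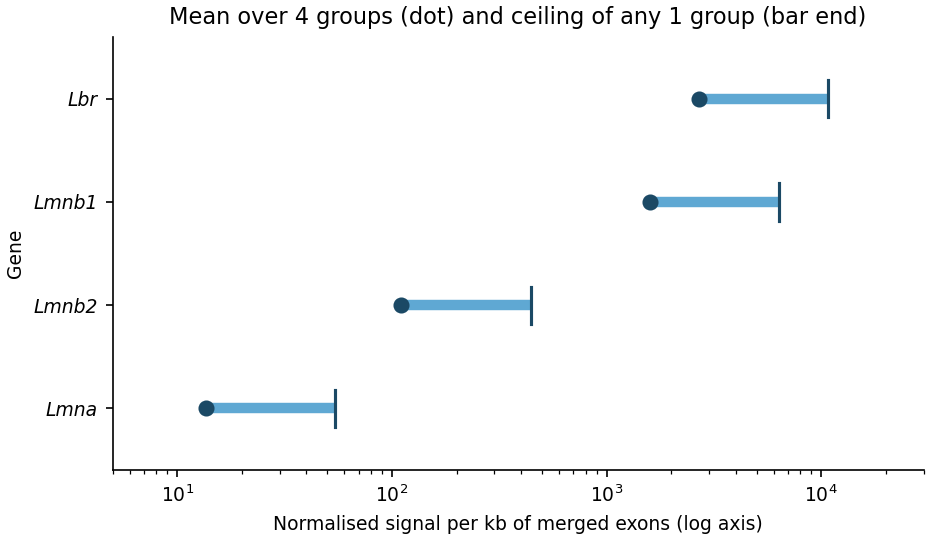
Normalised signal per kb of merged exons (horizontal log axis) for the 3 lamin genes and Lbr, with the mean over the 4 groups as a dot and the highest level that any 1 group could have as the bar's end. The bar of Lmna ends at 54.5, left of the dot of Lmnb2 at 111.

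Lmna has 7 annotated transcripts, 4 of them coding. The longest coding sequence (1998 bases) is that of prelamin A, and another of 1725 bases is that of lamin C. The authors' value is summed per gene, so lamin A and lamin C cannot be told apart.

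Lbr, which binds B-type lamins and heterochromatin protein HP1 and also has sterol reductase activity, was among the most abundant of these transcripts. The gene (ENSMUSG00000004880) occupies chr1:181815335-181843046 on the minus strand and had a mean normalised signal of 12853. Its level of 2699.6 per kb was higher than that of 98.2% of all genes with a length. Lbr stood 1.70-fold above Lmnb1 and 198-fold above Lmna per kb of merged exons. Across the measures of length these ratios ran from 1.70 to 12.4 and from 172 to 459. Its largest ratios come from the median coding transcript, which for Lbr is 627 bases with fragments among the transcripts annotated as coding, against 3.51 kb for its longest transcript.

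The levels of the LEM-domain genes Tmpo and Emd and of Banf1 lay close together per kb of merged exons, but not with every measure of length. Emerin and the LAP2 proteins share the LEM domain, through which they bind BAF, the small DNA-binding protein that Banf1 encodes. Tmpo (ENSMUSG00000019961), the gene of the LAP2 proteins, occupies chr10:91147571-91181315 (minus strand) and had a mean normalised signal of 5010.2, or 456 per kb. Emd (ENSMUSG00000001964), which encodes emerin, occupies chrX:74254687-74261548 (plus strand) and had a mean normalised signal of 990.05, or 393 per kb. Banf1 (ENSMUSG00000024844), at chr19:5364638-5367168 (minus strand), had a mean normalised signal of 638, or 426 per kb. Neighbours in this group stood 1.07-fold and 1.08-fold apart per kb of merged exons, and which of them was higher changed with the measure of length, except that Tmpo was above both others with each. The ratio of Tmpo to Emd per kb ran from 1.16 to 2.89 across the measures, and that of Tmpo to Banf1 from 1.02 to 3.05.

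Some reads of this group may belong to neighbouring genes. Exons of Eif1ad, on the opposite strand, overlap 28.6% of the merged exon bases of Banf1, and Eif1ad had a mean normalised signal of 609. Whether counting used strand is not given in the sources used here, so the level of Banf1 is uncertain. Exons of the pseudogene Gm14686 overlap 13.6% of those of Emd on the same strand, with a mean normalised signal of 4.25. For Lbr the overlap with Dnah14 on the opposite strand is 9.24%, and for the other genes with an overlap it is at most 3.98%. At an identity of at least 90% over at least 200 bases, the longest transcripts of the 10 genes matched 1 transcript of another gene, the Banf1-like Gm5393. For Lmna, Tmpo and Sun2 the longest transcript is a non-coding one with a retained intron. Copies of exons outside the longest transcript were not sought.

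**Figure D3:**
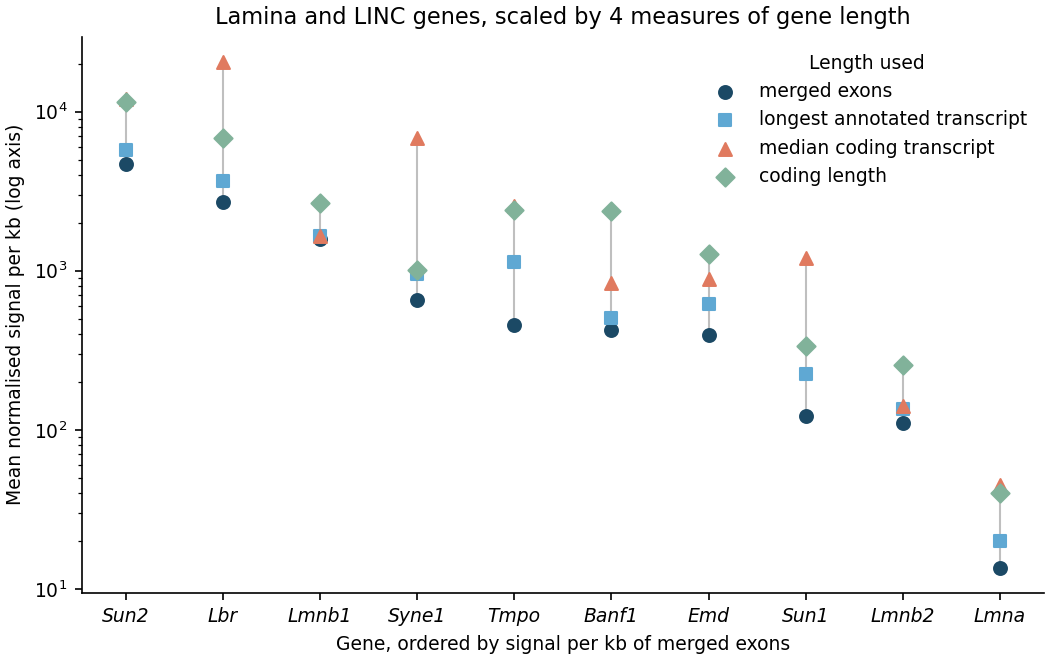
Mean normalised signal per kb (vertical log axis) of the 10 genes, each scaled by merged exons, the longest transcript, the median coding transcript and the coding length, with a grey line over the range of the 4. Lmna is lowest with every measure, and Syne1 and Sun1 move most, up to 6815 and 1204 with the median coding transcript.

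Of the SUN pair, Sun2 carried nearly all of the level. SUN proteins form trimers that bind KASH domains in the space between the nuclear membranes. Sun2 (ENSMUSG00000042524), at chr15:79724070-79742536 (minus strand), had a mean normalised signal of 25297, or 4667 per kb. Sun1 (ENSMUSG00000036817), at chr5:139200637-139249840 (plus strand), had a mean normalised signal of 928, or 122 per kb. Sun2 made up 97.4% of the pair's level per kb of merged exons and between 90.9% and 97.4% across the measures of length. The lowest share comes from the median coding transcript, which for Sun1 is 771 bases with fragments among the transcripts annotated as coding. The level of Sun2 was higher than that of 99.0% of all genes with a length, and that of Sun1 higher than that of 72.6%.

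Syne1, which encodes nesprin-1, a KASH protein that binds actin in its giant form, had the highest mean normalised signal of the 10 genes, 26539. The gene (ENSMUSG00000096054) occupies chr10:5020917-5551482 on the minus strand, a span of 531 kb. Its merged exons total 40.5 kb, so its level per kb was 655, in place 4 of the 10. Its coding transcripts run from 2.73 kb to 27.9 kb, and which of them the reads came from is unknown. Scaled by the longest transcript the level was 951, and by the median coding transcript 6815. Sun2 was therefore above Syne1 by 7.12-fold with merged exons and by 1.77-fold to 11.5-fold across the measures.

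The other genes of the nuclear envelope come from a list of 26, of which 23 had a level and 17 lay above the median protein-coding gene. Lemd1, Sun3 and Sun5 were not found by symbol and are left out. The median of the 23 was 194 per kb of merged exons, against 441 for the 10 genes. Of the KASH genes, Lrmp was at 760.2, above Syne1 with this length, while Syne3 and Syne2 (nesprin-3 and nesprin-2) were at 122 and 93.4. Other measures of length were not applied to the 23 genes and may change their order, also against the 10 genes. With the median coding transcript, Syne1 itself was at 6815. Syne4 and Ccdc155, the gene of KASH5, which works in meiosis, were at 2.49 and 0.418, and the SUN gene Spag4 was at 0.745. The LEM-domain genes Ankle2, Lemd2 and Lemd3 were at 319, 197 and 124, all under Emd and Tmpo, and Ankle1 was at 26.3.

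Enzymes that process prelamin A and farnesylated B-type lamins were measured too, and 4 of 5 such genes stood above the median protein-coding gene. Zmpste24, the protease that trims prelamin A, was at 569 per kb, 9.45-fold above the median protein-coding gene. Icmt, which methylates the farnesylated end, was at 194, and the farnesyltransferase subunits Fnta and Fntb were at 271 and 33.6. Rce1, which cleaves the last residues after farnesylation, was at 79.7. Among torsin genes, Tor1aip1, whose product LAP1 binds lamins and activates torsin, was at 872, and Tor1a at 535. Tmem43, which encodes the inner nuclear membrane protein LUMA, had the highest level of the 23 per kb of merged exons, 925. Whether it leads with the other measures of length was not examined.

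**Figure D4:**
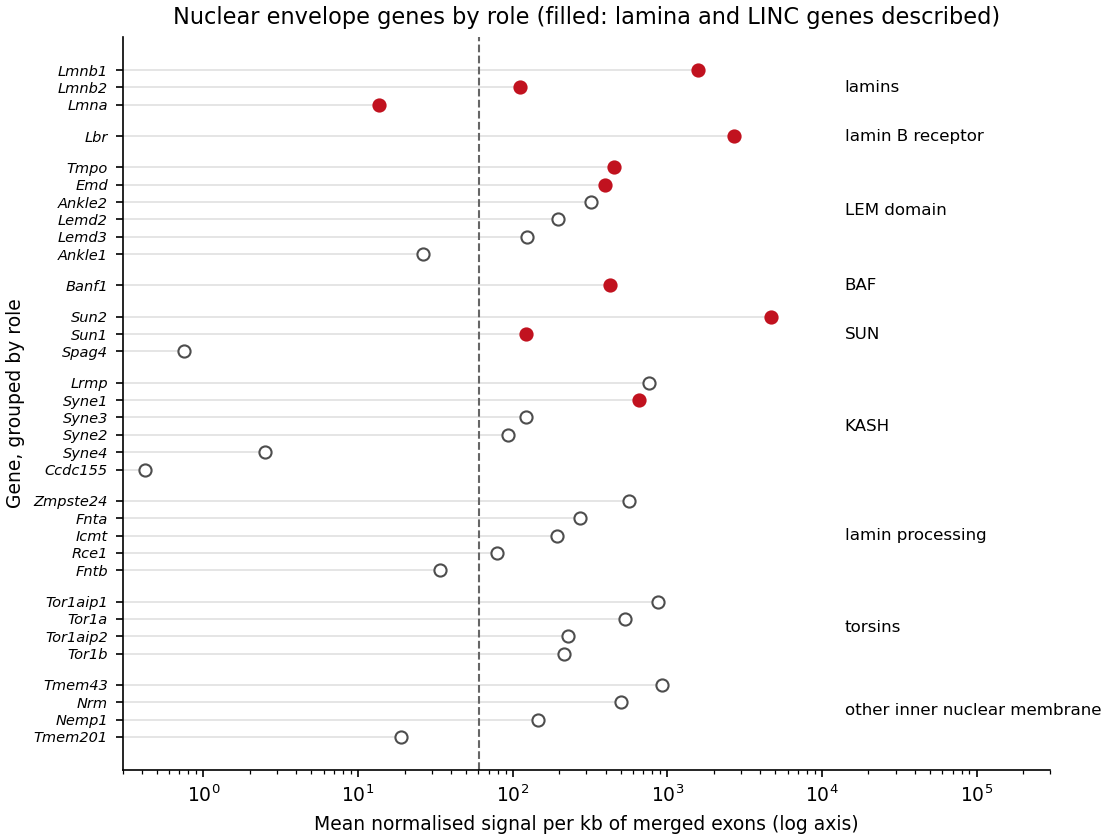
Mean normalised signal per kb of merged exons (horizontal log axis) for 33 nuclear envelope genes grouped by role, with the 10 lamina and LINC genes filled and the dashed line at the median protein-coding gene, 60.2. Within the lamins the genes spread from 13.6 to 1589, and within the SUN genes from 0.745 to 4667.

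The levels belong to a mixture that marker genes describe. The 9 granulocytic markers were between 8337 (Ly6g) and 1389954 (S100a9) per kb, and monocytic markers between 157 (Cx3cr1) and 5260.2 (Ly6c2), all above the median protein-coding gene. Itgam, which encodes the CD11b that both sorted subsets carry, was at 10760.3. The 3 markers of B cells reached 4065 (Cd79a), and the 3 of macrophages 9032 (C1qa), so transcripts typical of these cell types were present too. Whether such transcripts came from cells outside the sort gates was not tested. The part of these cell types in the levels of the 10 genes was not tested either. In such bulk samples, fewer cells of a type and less RNA per cell cannot be told apart.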

How the data were processed

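RNA from 8 sorted samples was sequenced by the authors, and per the methods and the labels the reads were trimmed (Cutadapt 1.14), aligned to mm10 (STAR 2.5.2b), quantified (RSEM 1.3.0, GENCODE M12) and tested with DESeq2 1.20.0. The deposited table holds a signal per gene, the authors' mean of counts divided by size factors. Its other 6 numeric columns (log2 fold change, its standard error, the test statistic, p-value, adjusted p-value and fold change) are the authors' own comparison of 2 groups and were not used.

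The planned test between genotypes needs values per sample and was not run. The mean signal was divided by the merged exon length of the later GENCODE release M21 (also mm10), which held 23004 of the 23084 identifiers. The longest transcript, the median coding transcript and the coding length served as alternatives. Percentiles are the share of genes with a lower level per kb. The named genes are the 10 lamina and LINC genes, 26 further nuclear envelope genes, 5 reference genes and the cell type markers. Kash5 was matched through its synonym Ccdc155. Of the reference genes, Actb was at 69844 and Tbp at 48.1 per kb. The genes and lists were chosen with earlier results of these data known. Copies were sought with blastn. Python 3.11.15 was used.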

Additional observations from a re-analysis of the deposited data

How the results depend on the processing

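No paired analysis was possible because a mean over all samples carries no replicate numbers. With single samples not analysed here, the planned test between wt and LmnaMyeKO CD11b+Ly6C+ cells, its other normalisation and filter, and the fits without each replicate were not run. The planned alignment of the lamin proteins was not run either, as their sequences were not used here. Lmna and Lmnb2 held the last places, 10 and 9, with every measure of length. The choice of length moved the level of Lmna up to 44.7 per kb, while its counting error was at most 4.44%.

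With the longest annotated transcript as length, the mean normalised signal per kb was Sun2 5732, Lbr 3662, Lmnb1 1655, Syne1 951, Tmpo 1128, Banf1 506, Emd 621, Sun1 225, Lmnb2 134 and Lmna 20.1. The places that moved were Syne1 at 5, Tmpo at 4, Banf1 at 7 and Emd at 6. With the median coding transcript as length, the mean normalised signal per kb was Sun2 12089, Lbr 20499, Lmnb1 1655, Syne1 6815, Tmpo 2565, Banf1 841, Emd 886, Sun1 1204, Lmnb2 141 and Lmna 44.7. The places that moved were Sun2 at 2, Lbr at 1, Lmnb1 at 5, Syne1 at 3, Tmpo at 4, Banf1 at 8 and Sun1 at 6. With the coding length as length, the mean normalised signal per kb was Sun2 11519.6, Lbr 6833, Lmnb1 2663, Syne1 1005, Tmpo 2406, Banf1 2362, Emd 1269, Sun1 339, Lmnb2 257 and Lmna 39.8. The places that moved were Syne1 at 7, Tmpo at 4, Banf1 at 5 and Emd at 6. With the median coding transcript Sun2 was no longer above Lbr, at a ratio of 0.590, where merged exons gave 1.73. Ranked among the 14312 genes with a mean signal of at least 10, the percentiles were Sun2 98.4, Lbr 97.1, Lmnb1 95.1, Syne1 87.9, Tmpo 83.0, Banf1 81.8, Emd 80.4, Sun1 55.9, Lmnb2 53.5 and Lmna 15.5. Ranked among protein-coding genes only, the percentiles were Sun2 98.6, Lbr 97.5, Lmnb1 95.8, Syne1 89.7, Tmpo 85.4, Banf1 84.5, Emd 83.2, Sun1 62.3, Lmnb2 60.3 and Lmna 32.2.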
